A study of Mus musculus with 13 samples.

Results

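Bivalent promoters of 4T1 cells, a mammary tumor line of BALB/cJ mice, were taken as H3K4me3 peaks of control cells that overlapped an H3K27me3 peak of the same cells by at least 1 bp, and they were followed into Nup210 knockout cells. The promoters were selected on the measured peaks of both marks in sg-Ctrl alone. The rule found 351 such promoters among 11018 distinct H3K4me3 peaks near transcription start sites (TSS) of control cells, which is 3.19% (95% Wilson interval 2.87 to 3.53). They were paired in the lists with 407 gene symbols and met 338 distinct H3K27me3 peaks. The control cells (sg-Ctrl) were 4T1 cells with Cas9 and a guide RNA without a target, and the knockout cells (KO) were 4T1 cells in which Nup210, a gene of a membrane protein of the nuclear pore, was disrupted with CRISPR/Cas9. The KO cells came from 1 clone, so effects of the knockout and differences of that clone cannot be told apart. Both were cultured alike and crosslinked after the same time in culture. Each mark was profiled by ChIP-seq in 1 library of sg-Ctrl and 1 library of KO cells, and rabbit IgG was the background for all of them. There were no replicates, so no test of KO against sg-Ctrl was possible, and all intervals cover counting error only.

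H3K4me3 marks the TSS of genes that are transcribed or ready for it and is placed by MLL and SET1 complexes. H3K27me3 is placed by Polycomb repressive complex 2 and covers wide regions around silent genes. Promoters with both marks are known from embryonic stem cells, where they lie at developmental regulators that are silent but can be switched on or off during differentiation, and tumor cells also hold them. Here the word bivalent means only that peak intervals of separate libraries overlapped. Followed into the other cells, a promoter counted as bivalent when its interval met a peak of each mark. Those peaks did not have to overlap each other. Whether both marks were on the same allele or in the same cells was not measured.

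The lists themselves set limits on these promoters. H3K4me3 peaks were listed when they met the 4 kb on either side of a TSS, and H3K27me3 peaks when they met a gene body. A listed TSS lay inside both peaks at 189 of the 351 promoters (53.8%, 48.6 to 59.0). The H3K27me3 peak had an FDR above 0.05 at 10 promoters and the H3K4me3 peak was under 2-fold over IgG at 11. Sequencing was deeper in KO, by 3.16 times for H3K27me3 and by 1.27 times for H3K4me3. Therefore reads were divided by the library size relative to IgG, which the deposited folds contain, and are called scaled reads. Of the epithelial markers in a fixed list, 8 of 8 (among them Epcam, Cdh1 and Krt8) had an H3K4me3 peak in sg-Ctrl and 0 had H3K27me3. Of 5 haematopoietic markers only Cd68 had H3K4me3, as did 0 of 4 endothelial and 2 of 4 fibroblast markers (Pdgfra and Col1a1), and no marker of the 4 lists was bivalent. The promoter of Nup210 was not bivalent and had an H3K4me3 peak of 885 reads in sg-Ctrl, and the log2 ratio of KO over sg-Ctrl was -0.41. This peak does not check the knockout, because the lists hold no expression values.

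The sequences just upstream of 6 of these promoters are shown because the genes recur in the results and because the promoters differ in CpG content. They were taken from RefSeq for GRCm38.p6, the assembly whose gene starts fit the lists, and each is the 250 bases before the TSS, read 5′ to 3′ on the strand of the gene, with every CpG (the letters CG, the same on both strands) in capitals. Twist1, Hoxa13 and Il6 had H3K4me3 only in KO, and Lhx4, Fgf9 and Bco2 were still bivalent.
Twist1 (chr12:33957421-33957670, plus strand): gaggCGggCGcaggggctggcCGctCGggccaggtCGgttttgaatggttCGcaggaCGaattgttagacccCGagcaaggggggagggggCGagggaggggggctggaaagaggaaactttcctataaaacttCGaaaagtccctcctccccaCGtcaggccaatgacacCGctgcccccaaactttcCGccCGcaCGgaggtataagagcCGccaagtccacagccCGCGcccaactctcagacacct
Hoxa13 (chr6:52260881-52261130, minus strand): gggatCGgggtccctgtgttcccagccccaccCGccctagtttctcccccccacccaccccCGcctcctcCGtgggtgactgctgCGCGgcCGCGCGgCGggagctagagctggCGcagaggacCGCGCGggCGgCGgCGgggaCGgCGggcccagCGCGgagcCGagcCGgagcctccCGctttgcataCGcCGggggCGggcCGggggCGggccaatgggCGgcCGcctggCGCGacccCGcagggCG
Il6 (chr5:30012864-30013113, plus strand): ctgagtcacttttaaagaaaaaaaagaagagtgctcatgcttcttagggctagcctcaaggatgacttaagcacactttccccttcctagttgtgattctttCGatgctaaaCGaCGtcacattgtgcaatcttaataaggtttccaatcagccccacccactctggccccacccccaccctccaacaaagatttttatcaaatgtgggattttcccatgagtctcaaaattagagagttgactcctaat
Lhx4 (chr1:155742028-155742277, minus strand): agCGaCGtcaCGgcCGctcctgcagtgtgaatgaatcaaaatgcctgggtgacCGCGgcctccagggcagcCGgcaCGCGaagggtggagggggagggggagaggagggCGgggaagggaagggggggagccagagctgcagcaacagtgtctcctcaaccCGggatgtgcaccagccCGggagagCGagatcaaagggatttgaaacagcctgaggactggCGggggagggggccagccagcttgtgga
Fgf9 (chr14:58072436-58072685, plus strand): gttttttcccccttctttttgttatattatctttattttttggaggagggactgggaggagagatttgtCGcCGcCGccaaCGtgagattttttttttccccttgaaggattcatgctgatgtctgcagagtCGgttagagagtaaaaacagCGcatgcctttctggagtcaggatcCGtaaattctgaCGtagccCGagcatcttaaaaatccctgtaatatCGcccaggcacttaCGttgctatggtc
Bco2 (chr9:50555139-50555388, minus strand): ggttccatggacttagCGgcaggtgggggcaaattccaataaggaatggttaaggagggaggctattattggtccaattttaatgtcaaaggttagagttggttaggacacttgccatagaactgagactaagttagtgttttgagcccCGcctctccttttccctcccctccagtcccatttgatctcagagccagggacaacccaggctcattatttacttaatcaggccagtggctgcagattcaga

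Hoxa13 held 35 CpG in the window, a number that 2.98% of all 32817 RefSeq promoters reach, and Twist1 held 18 (21.7%). Il6 held 3 CpG (70.9% of all promoters have as many) and Bco2 held 2 (81.2%), against a median of 6 over all promoters, of which 92.1% hold at least 1. Lhx4 with 14 CpG and Fgf9 with 11 lay between them (29.3% and 35.5%). These 6 were picked after their values were seen, so nothing is read from how they compare. A RefSeq promoter was matched to only 203 of the 351 bivalent promoters (57.8%), under the 80% needed, so a comparison of base composition over all of them is void and is not given.

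When the 351 promoters were followed into KO, H3K4me3 was nearly always still there, while H3K27me3 was no longer listed at nearly as many promoters as kept it. There were 169 promoters still bivalent (48.1%, 43.0 to 53.4), 165 with H3K4me3 only (47.0%, 41.8 to 52.2), 11 with H3K27me3 only (3.13%, 1.76 to 5.52) and 6 with neither mark (1.71%, 0.786 to 3.68). The promoters were chosen for having both marks in sg-Ctrl, so any change of state could only be the absence of a mark in KO. Without H3K4me3 in KO were 17 promoters (4.84%, 3.05 to 7.62), against 3.11% of all sg-Ctrl H3K4me3 peaks and 3.06% (2.75 to 3.40) of the other 10667 peaks. Without H3K27me3 over the promoter in KO were 171 (48.7%, 43.5 to 53.9), while 18.5% of all sg-Ctrl H3K27me3 peaks met no KO peak. These 2 shares are unlike, because the first counts promoter intervals and the second whole H3K27me3 peaks. Of whole H3K27me3 peaks with a bivalent promoter, 29.0% (24.4 to 34.0) met no KO peak. In the opposite direction, only 59 of the 10667 other H3K4me3 peaks (0.553%) overlapped H3K27me3 in KO, 50 of them with H3K4me3 still present. Among KO cells 294 of 10854 H3K4me3 peaks were bivalent (2.71%, 2.42 to 3.03). When these were followed back, 195 were bivalent in sg-Ctrl (66.3%, 60.7 to 71.5), 58 had H3K4me3 only (19.7%), 33 had H3K27me3 only (11.2%) and 8 had neither (2.72%). The share with both marks was thus 48.1% from sg-Ctrl to KO and 66.3% from KO to sg-Ctrl, and the part of library depth in this was not tested. When every overlap had to cover 0.5 of the H3K4me3 peak, the shares were 45.9% (39.2 to 52.7) and 50.9% (43.3 to 58.4), with intervals that overlap.

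**Figure D1:**
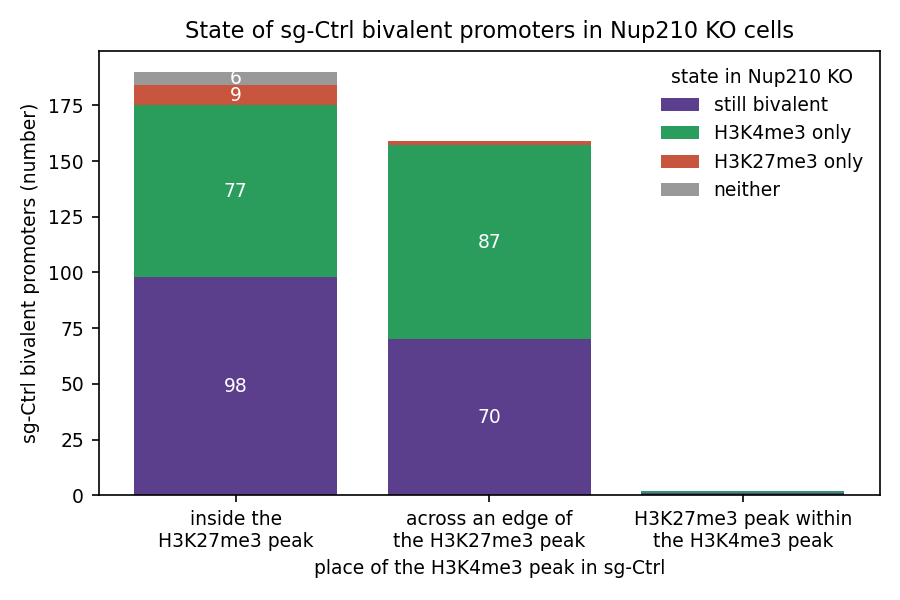
Number of sg-Ctrl bivalent promoters (vertical axis) by the place of the H3K4me3 peak (horizontal axis), with colours for the state in Nup210 KO and no error bars because each promoter is counted once. Still bivalent are 98 of 190 promoters inside an H3K27me3 peak and 70 of 159 across its edge.

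The promoters were of 2 kinds by position. At 190 the H3K4me3 peak lay wholly inside the H3K27me3 peak, at 159 it crossed an edge, and at 2 the H3K27me3 peak lay within the H3K4me3 peak. Inside promoters had weak and narrow H3K4me3, with a median of 182 reads over 1400 bp, whereas edge promoters had 1994 reads over 3400 bp. The other H3K4me3 peaks had medians of 1894 reads and 3400 bp, so edge promoters had H3K4me3 about as strong as that of promoters without H3K27me3. A TSS lay inside both peaks at 76.3% (69.8 to 81.8) of inside promoters and 27.7% (21.3 to 35.1) of edge promoters. Still bivalent were 51.6% (44.5 to 58.6) of inside and 44.0% (36.5 to 51.8) of edge promoters, and H3K4me3 only were 40.5% (33.8 to 47.6) and 54.7% (47.0 to 62.3), as the plot of promoter states by position shows. All 6 promoters with neither mark were inside promoters, as were 9 of the 11 with H3K27me3 only.

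H3K4me3 in sg-Ctrl ranged from 30 to 17027 reads at promoters still bivalent in KO (median 468) and from 33 to 66144 reads at those with H3K4me3 only (median 865), so the groups overlapped. Promoters with H3K4me3 only in KO had come from narrower H3K27me3 peaks. The median width in sg-Ctrl was 16 kb (14 to 19) for them and 38 kb (31 to 44) for promoters still bivalent, while the fold over IgG was 3.19 (2.93 to 3.46) and 3.39 (3.07 to 3.63). At 96 of the 165 (58.2%, 50.6 to 65.4) the sg-Ctrl H3K27me3 peak met no KO peak at all, and the nearest KO peak was then at a median of 112 kb. At the other 69 the H3K27me3 peak still met a KO peak elsewhere along its length, at a median of 1.4 kb (0.8 to 3.0) from the promoter. Of these, 52 had a KO peak within 5 kb. Absence of the whole listed domain and absence of only the stretch over the promoter thus both occurred among promoters with H3K4me3 only.

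The H3K27me3 peaks that met a bivalent promoter were compared with the other H3K27me3 peaks. Of the 338 peaks with such a promoter, 98 met no KO peak (29.0%, 24.4 to 34.0), against 18.5% of all 9555 sg-Ctrl peaks and 18.2% (17.4 to 19.0) of the 9217 peaks without one. The share was higher at each width. For peaks of 1 to 10 kb it was 55.6% (44.7 to 65.9) with a bivalent promoter and 27.6% (26.2 to 29.1) without. For peaks of 11 to 40 kb it was 30.8% (23.9 to 38.7) and 14.7% (13.7 to 15.8), and for peaks of 41 kb or more it was 7.21% (3.70 to 13.6) and 3.30% (2.45 to 4.43). The median fold over IgG of peaks with a bivalent promoter was 3.19, 2.98 and 3.56 in the 3 width classes and that of the others was 2.41, 2.42 and 3.17. No test over replicates was possible for this difference.

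**Figure D2:**
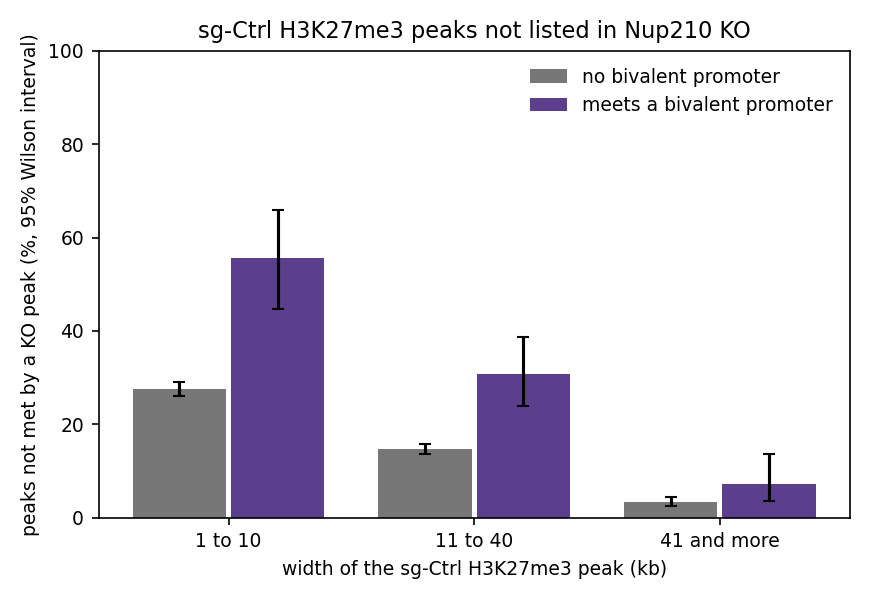
Share of sg-Ctrl H3K27me3 peaks not met by any KO peak (vertical axis, percent, bars with 95% Wilson intervals) by width of the peak in kb (horizontal axis), for peaks with and without a bivalent promoter. The bar of peaks with a bivalent promoter is the higher one in all 3 classes, 55.6% against 27.6% for the narrowest.

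The same was examined at the level of single TSS within H3K27me3. Of the TSS inside an sg-Ctrl H3K27me3 peak, 215 also lay inside an H3K4me3 peak, and 101 of these (47.0%, 40.4 to 53.6) were inside H3K27me3 in KO. Of the 2721 TSS inside H3K27me3 without H3K4me3, 2259 were (83.0%, 81.6 to 84.4). TSS with H3K4me3 had the lower share at every distance from the edge of the domain. Within 1 kb of the edge it was 31.9% (20.4 to 46.2) with and 66.9% (59.5 to 73.5) without H3K4me3, from 1 to 5 kb it was 37.7% (27.2 to 49.5) and 76.2% (73.3 to 78.9), and from 5 to 20 kb it was 62.7% (51.4 to 72.7) and 86.2% (84.1 to 88.0). At 20 kb or more from the edge the shares were 54.2% (35.1 to 72.1) of 24 TSS and 93.8% (91.3 to 95.6) of 483 TSS. When TSS inside KO H3K27me3 were followed back into sg-Ctrl, this gap was not seen, with 75.9% (68.7 to 81.9) of 158 TSS with H3K4me3 and 72.0% (70.4 to 73.5) of 3113 TSS without. Near the edge TSS with H3K4me3 had the higher share, with overlapping intervals. Within 1 kb it was 66.7% (45.4 to 82.8) with and 44.3% (36.8 to 52.1) without H3K4me3. From 1 to 5 kb it was 77.8% (63.7 to 87.5) and 62.6% (59.3 to 65.8), from 5 to 20 kb 73.6% and 76.5%, and farther in 82.1% and 79.9%. TSS of neighbouring or overlapping genes share peaks, so they are not independent of each other.

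**Figure D3:**
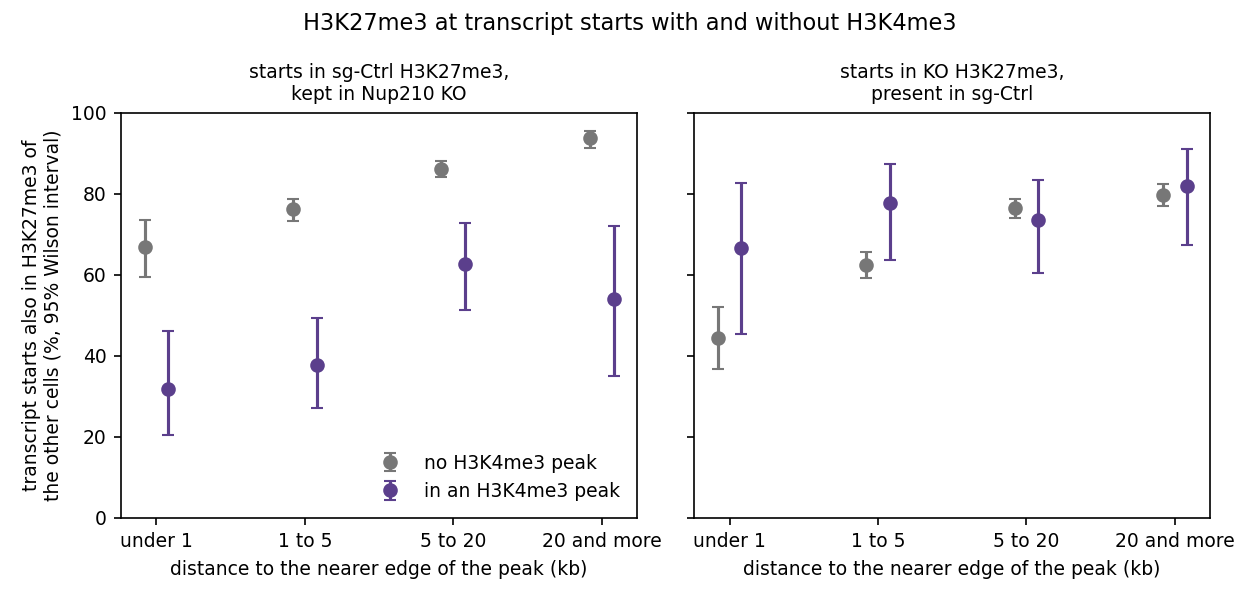
Share of TSS inside H3K27me3 of one kind of cell that were also inside H3K27me3 of the other (vertical axis, percent, points with 95% Wilson intervals) by distance to the nearer edge of the peak in kb (horizontal axis), with and without an H3K4me3 peak over the TSS. Going from sg-Ctrl to KO (left) the points with H3K4me3 lie lower throughout, 47.0% against 83.0% in all, whereas going from KO to sg-Ctrl (right) they are 75.9% and 72.0% in all.

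Where a promoter across an edge was still bivalent, the stretch of it under H3K27me3 could be compared, and 57 of these 70 promoters had the same number of bp covered in both lists. Promoters that H3K27me3 no longer reached in KO are by definition not among these. Among edges of all sg-Ctrl H3K27me3 peaks met by a KO peak, 31.1% (30.4 to 31.8) lay at the same position in KO. The count of promoters and this share are unlike, because only the promoters had to be still covered by H3K27me3 in KO. Over whole domains the KO peak was wider at 88 of the 169 promoters still bivalent, narrower at 50 and as wide at 31. Its median width was 45 kb (35 to 55), against 38 kb (31 to 44) in sg-Ctrl. Overlapping H3K27me3 peaks of both lists were also joined into regions to compare covered length. The median log2 ratio of covered length was 0 (-0.006 to 0) in 240 regions with a bivalent promoter and 0.078 (0.064 to 0.091) in 6007 without. The part of library depth in these widths was not tested.

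Dusp3, a phosphatase acting on MAP kinases, had the strongest H3K27me3 by fold among still bivalent promoters with at least 100 H3K4me3 reads. Its H3K27me3 peak (chr11:101986001-101994000, shared with 1700006E09Rik) had 203 sg-Ctrl reads and 658 KO reads, a fold over IgG of 15.98 and 16.4, and its H3K4me3 peak held 700 and 693 reads. Here the edge of H3K27me3 was in the same place, with 400 bp of the H3K4me3 peak covered in both lists. Tfap2c, which encodes the transcription factor AP-2 gamma, had 92 H3K27me3 reads over 2 kb in sg-Ctrl and 416 over 6 kb in KO, and 111 and 204 H3K4me3 reads. The H3K27me3 peak at Dnaaf1/Hsdl1 (a ciliary dynein assembly factor and a dehydrogenase-like protein) was 3 kb wide in sg-Ctrl and 15 kb in KO, with 109 and 1015 reads. Dcp1b, of the mRNA decapping complex, kept 800 bp under H3K27me3 with 1942 and 5465 reads, and 1700022E09Rik/Mina, the latter a ribosomal oxygenase, kept 200 bp with 931 and 9953 reads. These reads are not scaled, and the KO library was 3.16 times deeper for H3K27me3 and 1.27 times for H3K4me3. The log2 H3K4me3 ratio of scaled reads per kb was -0.36 at Dusp3 and -0.20 at Tfap2c. The H3K27me3 fold over IgG in sg-Ctrl and KO was 6.79 and 3.45 at Tfap2c and 8.58 and 3.54 at Dnaaf1/Hsdl1. It was 6.46 and 5.04 at Dcp1b and 6.11 and 4.16 at 1700022E09Rik/Mina. All 5 of these leading promoters crossed the edge of an H3K27me3 peak.

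Among promoters with H3K4me3 only in KO, the leading ones overlapped short H3K27me3 peaks. At Mdga1 (chr17:29885001-29887000), a cell surface protein of neurons, a peak of 2 kb held 74 H3K27me3 reads and 0 IgG reads in sg-Ctrl and the nearest KO peak was 349 kb away, while H3K4me3 had 272 reads in sg-Ctrl and 1467 in KO. At Bmi1/Commd3, where Bmi1 encodes a subunit of Polycomb repressive complex 1, an H3K27me3 peak of 1 kb with 86 reads and 3 IgG reads lay within an H3K4me3 peak of 11000 bp with 4601 reads in sg-Ctrl and 4670 in KO. Sema6a, a semaphorin of axon guidance, had 153 H3K27me3 reads over 6 kb, and H3K4me3 of 321 and 251 reads. The H3K27me3 peaks at these promoters were narrow, and that they stood far above IgG follows from the choice of the highest folds. Over all 165 promoters with H3K4me3 only, the H3K27me3 peak had a median width of 16 kb and a median fold of 3.19. Amigo2/Pced1b, the first a cell adhesion molecule, had 191 H3K27me3 reads over 3 kb and Cited1/Gm14858, the first a transcriptional coregulator, had 135 over 6 kb. H3K4me3 at Cited1 was 112 reads in sg-Ctrl and 310 in KO with 0 IgG reads, a log2 ratio of 1.12, and at Amigo2 it was 1156 and 1722 reads, a log2 ratio of 0.17. In sg-Ctrl, H3K27me3 covered 200 of 3200 bp of the H3K4me3 peak at Mdga1 and 1000 of 11000 bp at Bmi1/Commd3. It covered 2200 of 4400 bp at Amigo2, 800 of 1800 bp at Cited1 and all 3800 bp at Sema6a.

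The 17 promoters without H3K4me3 in KO had weak H3K4me3 to begin with. The 11 with H3K27me3 only had between 43 and 238 H3K4me3 reads in sg-Ctrl (median 81) and the 6 with neither mark between 28 and 110 (median 57), against a median of 539 (412 to 755) over all bivalent promoters. With H3K27me3 only were B630019K06Rik (238 H3K4me3 reads in sg-Ctrl), Adam3, a sperm surface protein (140 reads), Spata6 (116 reads), Samsn1, an adaptor of lymphocytes (99 reads), Rdh12, a retinol dehydrogenase (98 reads), 2810429I04Rik (81 reads), Lin28b, an RNA-binding protein that blocks let-7 maturation (67 reads), Gm4951 (66 reads), Tnfaip8l3 (52 reads), the olfactory receptor Olfr1359 (49 reads) and Ankef1 (43 reads). At Adam3 H3K27me3 covered 70 kb with 3600 reads in sg-Ctrl and 82 kb with 14682 reads in KO. These reads are not scaled, and the fold over IgG was 3.44 in sg-Ctrl and 3.97 in KO. At Lin28b the H3K4me3 peak was only 2.04-fold over IgG and at Samsn1 1.48-fold. With neither mark were Slc39a8, a zinc and manganese transporter (110 reads), Phactr2, a phosphatase and actin regulator (97 reads), Spata13 (67 reads), Ccdc73 (47 reads), the protocadherins Pcdhb17/Pcdhb18 (47 reads) and Zfp820 (28 reads). All 17 were in the lowest quartile of sg-Ctrl H3K4me3 peaks by reads per kb, where 8.72% (5.51 to 13.5) of bivalent promoters and 12.4% (11.2 to 13.7) of other peaks had no KO peak.

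H3K4me3 over the promoters was then compared by level, as the ratio of scaled reads per kb of the paired peaks, which was possible for the 334 promoters with H3K4me3 in both lists. The reads of each library were divided by the width of its own peak, so the ratio joins reads with peak width. The median width of all H3K4me3 peaks was 3400 bp in sg-Ctrl and 3800 bp in KO, and a wider KO peak lowers the ratio. The median log2 ratio of KO over sg-Ctrl was -0.19 (-0.26 to -0.13) for bivalent promoters and -0.50 (-0.51 to -0.49) for the other peaks, with -0.49 over all peaks. Below 0 were 63.2% (57.9 to 68.2) of bivalent promoters and 88.1% (87.4 to 88.7) of the others, and with scaling by shared peaks, which adds 0.42 to every ratio, 33.8% (29.0 to 39.1) and 57.1% (56.2 to 58.1). At least 2-fold lower in KO were 25 bivalent promoters (7.49%, 5.12 to 10.8), against 9.97% of all peaks. At least 2-fold higher were 22 (6.59%, 4.39 to 9.77), against 0.862% of all peaks. Relative to the median of all peaks, 5 were lower and 56 higher by at least 2-fold. How many of all peaks pass on this basis was not counted, so these counts are not set against a background. The sign of the bivalent median depended on the scaling and the measure. Scaling by shared peaks gave 0.23, with 5 promoters 2-fold lower and 52 higher. Summing reads over the joined region, which does not divide by peak width, gave 0.030 (-0.03 to 0.14). No value of the other peaks is given on that measure, so the difference from them rests on reads per kb. Shares of all peaks at 2-fold are given only for reads per kb scaled by library size. The counts under other scalings and measures therefore describe bivalent promoters alone.

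The ratio also moved with the level of H3K4me3 in sg-Ctrl, which was lower at bivalent promoters (median 237 scaled reads per kb) than at other peaks (502). This level is also the denominator of the ratio, so level and ratio are not independent. A fall of the ratio from the lowest to the highest quartile can arise from that alone. In the lowest quartile of peaks by level, the median log2 ratio was 0.17 (0.04 to 0.30) for 178 bivalent promoters and -0.16 (-0.18 to -0.14) for other peaks. In the second quartile the medians were -0.25 and -0.37, in the third -0.60 and -0.54, and in the highest -0.76 and -0.74. So bivalent promoters and other peaks had different medians mainly in the lowest quartile, where the median level was 109 scaled reads per kb for bivalent promoters and 172 for the others. By position, the median was 0.07 (-0.03 to 0.23) for inside promoters and -0.36 (-0.50 to -0.27) for edge promoters, and with scaling by shared peaks 0.49 (0.40 to 0.65) and 0.06 (-0.08 to 0.16). The part that the shared denominator, low counts, weak peaks and peak width have in these ratios was not tested.

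**Figure D4:**
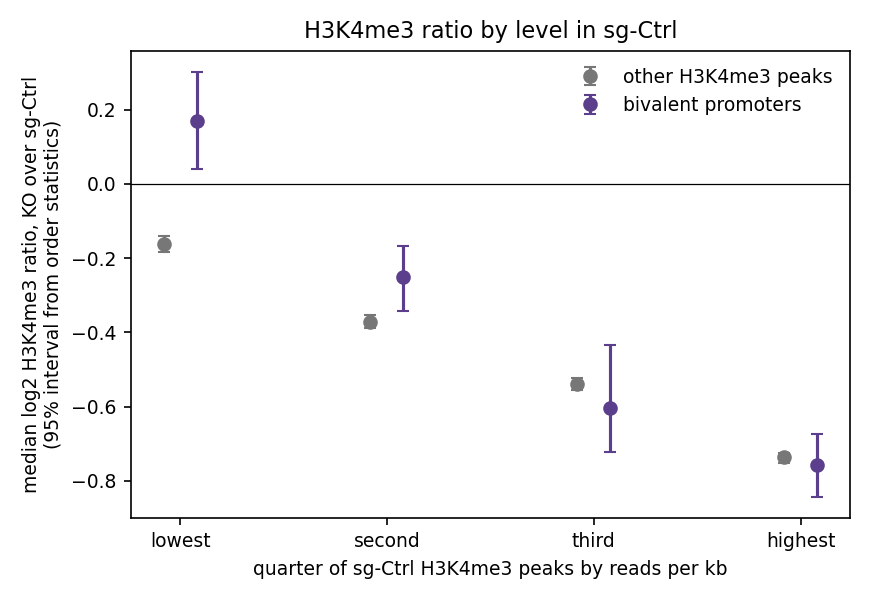
Median log2 ratio of H3K4me3 in KO over sg-Ctrl (vertical axis, scaled reads per kb, with 95% intervals of the median from order statistics) by quartile of the sg-Ctrl H3K4me3 level (horizontal axis), for bivalent promoters and other peaks. The 2 groups stand apart in the lowest quartile, 0.17 and -0.16, and lie close together in the highest, -0.76 and -0.74. The sg-Ctrl level is also the denominator of the ratio, so the axes are not independent.

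**Figure D5:**
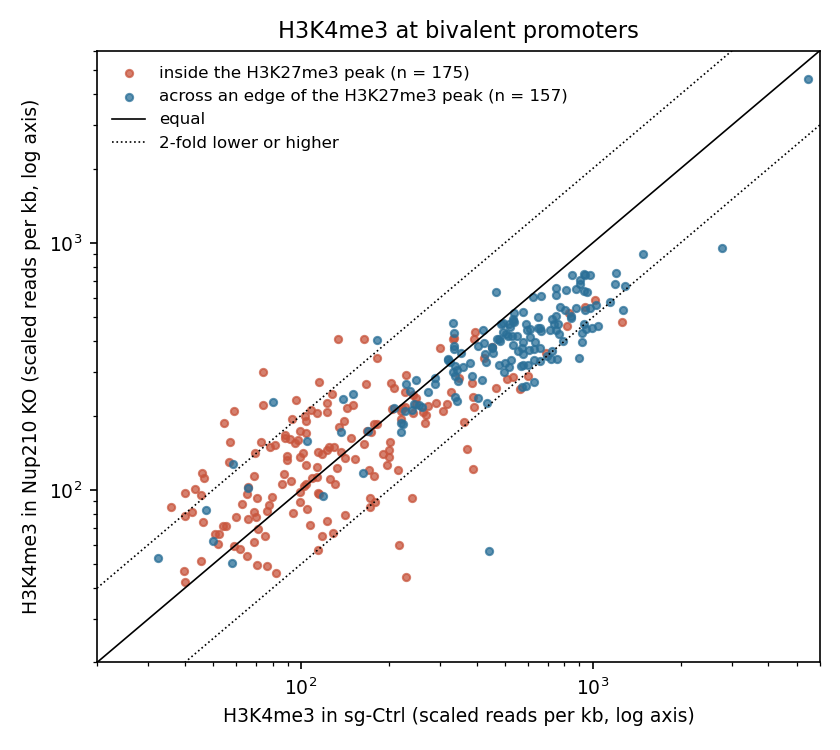
H3K4me3 in sg-Ctrl (horizontal log axis) and Nup210 KO (vertical log axis) as scaled reads per kb for bivalent promoters with a peak in both lists, coloured by position in the H3K27me3 peak, with lines at equality and at 2-fold. Edge promoters sit mostly below the line of equality, with a median log2 ratio of -0.36, and inside promoters on both sides of it, with a median of 0.07. With scaling by shared peaks these medians are 0.06 and 0.49.

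Single promoters still bivalent in KO stood out in H3K4me3, as the scatter of promoters in sg-Ctrl and KO shows. Cd1d1 (H3K4me3 peak chr3:86998801-87000000), which presents lipid antigens to natural killer T cells, had 563 H3K4me3 reads in sg-Ctrl and 76 in KO, with 0 IgG reads in both, a log2 ratio of -2.97. Bco2, a carotenoid-cleaving enzyme of mitochondria whose CpG-poor promoter is printed above, had 341 and 131 reads (-2.38). Marcks (chr10:37135201-37142000), a substrate of protein kinase C at the plasma membrane, had 1564 reads over 6800 bp in sg-Ctrl and 97 over 1200 bp in KO (-1.85), and Stc1, the hormone stanniocalcin, had 986 and 196 reads (-1.68). At Marcks the H3K27me3 peak was also narrower in KO, 9 kb against 32 kb, whereas at Stc1 it was wider, 193 kb against 47 kb. The highest ratios were at 4930468A15Rik (log2 ratio 2.02) and Mir101c (1.61), but both marks were below scaled IgG there in sg-Ctrl, with 47 H3K4me3 reads against 537 IgG reads at the former and 85 against 771 at the latter. Kcng3, a modifier subunit of potassium channels, had 47 H3K4me3 reads in sg-Ctrl and 358 in KO (1.58). Grb14, an adaptor that inhibits insulin receptor signaling, had 73 and 505 reads (1.45), while its H3K27me3 domain was 148 kb wide in sg-Ctrl and 145 kb in KO.

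H3K27me3 over whole domains was compared by joining overlapping peaks of both lists into regions. Of the 338 regions with a bivalent promoter, 240 had peaks in both lists and 98 had sg-Ctrl peaks only. The lists hold reads of peaks only, so reads per kb of a region join the length covered by peaks with the level within them. On this measure the median log2 ratio in the 240 was -0.12 (-0.19 to -0.03), and it was 0.02 in the 6007 regions without a bivalent promoter. A ratio of 0.5 or less was found in 36 of the 240, against 9.56% of all regions, and a ratio of 2 or more in 21, against 12.1%. Per covered kb, which leaves out the length, the median was -0.12 (-0.17 to -0.06) with a bivalent promoter and -0.14 (-0.15 to -0.13) without. A ratio per covered kb of 0.5 or less was found in 3 of the 240, against 1.02% of all regions, and a ratio of 2 or more in 0, against 0.16%. Differences of 2-fold were thus far fewer per covered kb than per kb of region.

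The 4 regions lowest in KO by reads per kb of region were wide domains in sg-Ctrl of which between 4 and 17 kb were covered in KO. The region of Slc39a8 (chr3:135819001-135934000) was covered over 115 kb with 3014 H3K27me3 reads in sg-Ctrl and over 4 kb with 290 reads in KO, a log2 ratio of -5.04, while per covered kb there were 31.0 scaled reads in sg-Ctrl and 27.1 in KO. The region of Il6 (chr5:29892001-30030000), which encodes the inflammatory cytokine interleukin 6, went from 138 kb and 5613 reads to 6 kb and 640 reads (-4.79), with 48.0 and 39.9 scaled reads per covered kb. The regions of Gm10549/Nrep (233 and 17 kb, -5.01) and Esd, an esterase (83 and 6 kb, -4.60), were alike. All 4 lacked H3K27me3 over the promoter in KO, and 3 of them kept H3K4me3. At Il6 this was a faint peak in both cells, with 73 reads and a fold over IgG of 1.91 in sg-Ctrl and 66 reads in KO, and Esd had a strong peak of 3716 and 2565 reads. The 4 highest regions were covered over far more of their length in KO. Otor (region chr2:143077001-143167000), a secreted protein of the inner ear, had 9 kb with 241 reads in sg-Ctrl and 90 kb with 7909 reads in KO (log2 ratio 3.38, with 31.6 and 32.8 scaled reads per covered kb), and Ppargc1a (region chr5:51384001-51607000), a coactivator of mitochondrial biogenesis, had 54 and 223 kb (2.51). Il15, a cytokine of natural killer and T cells, had 34 and 108 kb (2.36), and its H3K4me3 was 1499 and 551 reads (-1.35). At Ankef1 (29 and 207 kb, 2.91) H3K4me3 was not listed in KO, and the other 3 of these regions were still bivalent.

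Developmental regulators, the genes for which bivalent promoters are known, were counted with a fixed list of transcription factor families, which leaves out others among the 351 such as Tfap2c. Of 83 listed developmental transcription factors with an H3K4me3 peak in sg-Ctrl, 5 (6.02%, 2.60 to 13.3) were at bivalent promoters, against 3.27% (2.97 to 3.60) of all 12453 genes with such a peak. They shared 4 peaks, of which 2 were still bivalent in KO and 2 had H3K4me3 only. Twist1 (H3K4me3 peak chr12:33956401-33960800), a driver of epithelial to mesenchymal transition, lay at the edge of an H3K27me3 peak of 59 kb in sg-Ctrl with 3600 bp of the promoter covered, and in KO the nearest H3K27me3 peak ended 0.4 kb away. Its H3K4me3 peak had 1041 reads in sg-Ctrl and 900 in KO (log2 ratio -0.27). At Hoxa13 (H3K4me3 peak chr6:52259801-52261600), a factor of limb and genital patterning with the CpG-rich promoter above, an H3K27me3 peak of 27 kb (811 reads) had no KO peak within 235 kb, and H3K4me3 was 87 reads in sg-Ctrl and 282 in KO (1.06). Lhx4 (H3K4me3 peak chr1:155741401-155742600), a LIM homeobox factor of pituitary development, kept an H3K27me3 peak of 18 kb with 436 and 1072 reads. The fold over IgG of this peak was 3.46 and 2.69, and H3K4me3 at Lhx4 was 132 and 366 reads (0.71). Hoxd12/Hoxd13 shared a weak H3K4me3 peak of 48 and 172 reads, 1.56-fold over IgG in sg-Ctrl, which met the edge of a 10 kb H3K27me3 peak in both lists. At Hoxa13, Lhx4 and Hoxd12/Hoxd13 the log2 H3K4me3 ratio was above 0 with either scaling, and at Twist1 it was -0.27 and, with scaling by shared peaks, 0.16.

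The other lists gave few bivalent promoters, and their genes too were counted only where they had an H3K4me3 peak in sg-Ctrl. Of 27 genes of Wnt, FGF and TGF-beta superfamily ligands 1 was bivalent, Fgf9, a growth factor, which was still bivalent in KO. It had 2123 and 7471 H3K27me3 reads, with a fold over IgG of 3.63 and 2.75. Its H3K4me3 was 219 reads over 1800 bp in sg-Ctrl and 365 over 2800 bp in KO (log2 ratio per kb -0.25). Of 10 cell cycle inhibitors 1 was found, Trp73, a relative of p53, whose shared peak with Wdr8 had H3K4me3 only in KO (755 and 596 reads). Of 36 epithelial and mesenchymal genes 3 were found. Besides Twist1 these were Esrp1 and Cldn25. Esrp1, a splicing regulator of epithelial cells, had H3K4me3 only in KO (3434 and 3193 reads), with 181 H3K27me3 reads over 9 kb in sg-Ctrl. Cldn25, of the claudin family, was still bivalent (1988 and 2556 H3K4me3 reads, log2 ratio per kb -0.06). Of 9 genes of cell migration that were also assayed by qRT-PCR 0 were bivalent, as were 0 of 81 genes of cytosolic ribosomal proteins, which allows up to 4.53% by the Wilson interval. These counts are too small to set the lists apart from all genes.

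NUP210 itself had been profiled in sg-Ctrl cells, in a library the choice of promoters did not use, as had several nuclear pore proteins with 1 antibody (NPC). A NUP210 peak overlapped 92 of the 351 bivalent promoters (26.2%, 21.9 to 31.1) and 14.9% (14.3 to 15.6) of the other H3K4me3 peaks. An NPC peak overlapped 26.8% (22.4 to 31.6) and 14.3% (13.6 to 14.9). An FDR above 0.05 was listed for 4093 of 13204 NUP210 peaks and 5427 of 11234 NPC peaks. With NPC peaks at an FDR of at most 0.05 alone, the shares were 12.3% (9.22 to 16.1) and 6.46% (6.01 to 6.94). With NUP210 peaks at an FDR of at most 0.05 alone, the shares were 16.2% (12.8 to 20.5) and 9.59% (9.05 to 10.2), and with an FDR of at most 0.01 in every list they were 13.3% (10.1 to 17.4) and 8.47% (7.96 to 9.02). When every overlap had to cover 0.5 of the H3K4me3 peak, they were 14.5% (10.3 to 19.9) of 207 bivalent promoters and 10.6% (10.03 to 11.2) of the other peaks, and these intervals overlap. By state in KO, 32.0% (25.4 to 39.3) of promoters still bivalent and 20.6% (15.1 to 27.4) of those with H3K4me3 only overlapped any NUP210 peak. With NUP210 peaks at an FDR of at most 0.05 these shares were 20.1% (14.8 to 26.8) and 12.7% (8.48 to 18.7). The intervals of the states overlap in either case. By position, the share overlapping any NUP210 peak was 35.8% (28.8 to 43.6) for edge promoters, which are the wider peaks, and 17.4% (12.6 to 23.4) for inside promoters. The part of peak width in these shares was not tested.

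Promoters at the limit of the rule had the smallest overlap the window sizes allow. At 29 promoters H3K27me3 covered 200 bp of the H3K4me3 peak, among them Fastkd2/Mdh1b (4370 H3K4me3 reads, still bivalent), Prdm4 (1832 reads, H3K4me3 only in KO) and Tex14 (1218 reads, H3K4me3 only in KO). Just outside it were 26 H3K4me3 peaks that touched an H3K27me3 peak without sharing a base, such as Med23 (1799 reads), Ddx50 (3817 reads) and Amdhd1/Ccdc38 (393 reads), and these 3 had H3K4me3 only in KO.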

How the data were processed

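Peak lists from ChIP-seq of 4T1 cells were analysed, 1 per library: H3K4me3 and H3K27me3 from either kind of cell, and NUP210 and NPC from the controls. Peaks had been called by the authors with SICER against IgG, using 200 bp windows (H3K4me3) or 1000 bp windows (all others). For each peak they deposited raw counts of ChIP and IgG reads, a p-value with its FDR, and the fold over IgG, a ratio scaled by library size in which the authors' tool uses 0.25 reads where IgG has 0. The aligner and build of these lists are not given in the sources used here, and 89.9% of 9078 genes matched by name had a RefSeq GRCm38.p6 start within 50 bp. RNA-seq of the series was not analysed here, and IgG entered only through the lists.

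Entries that repeat a peak were collapsed. Library size relative to IgG was recovered from counts and fold, and all 575 H3K4me3 and 832 H3K27me3 peaks with equal positions in both lists had equal IgG reads. Reads in peaks (sg-Ctrl, then KO) numbered 7719297 and 26811061 for H3K27me3, and 26236314 and 24873356 for H3K4me3. A promoter kept a mark where its sg-Ctrl interval met a KO peak by 1 bp or more, and its H3K4me3 was paired with the KO peak of largest overlap. Shares have 95% Wilson intervals, medians have intervals from order statistics, and no test was made because 1 library stood for each condition. Genes named are, per state in KO, up to 5 with the highest H3K27me3 fold and at least 100 H3K4me3 reads (all promoters of the states without H3K4me3), the 4 lowest and 4 highest H3K4me3 and H3K27me3 ratios, 3 promoters on either side of the overlap limit, and promoters in the gene lists. The promoters printed were picked among these after their values were seen. The promoters, lists and comparisons were chosen with earlier results of these data known. The steps were tested on simulated data. Alternatives were the FDR, the fold over IgG, the overlap, autosomes, the scaling and a minimum of reads. Scripts ran in Python 3.11.15 with scipy 1.17.1, pandas 2.3.3, numpy 2.4.6 and, for plots, matplotlib 3.10.9.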

Additional observations from a re-analysis of the deposited data

How the results depend on the processing

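Of 63 values recomputed under alternatives for 11 results, 46 moved by less than their interval or, for counts, by less than 1.5 times, 15 moved by more and 2 changed sign. Scaling by peaks shared between lists gave a median log2 H3K4me3 ratio of 0.23, with 5 promoters 2-fold lower and 52 higher, and a median log2 H3K27me3 ratio of -0.25, because this scaling shifts every ratio by 0.42 and -0.12. With scaled reads summed over the joined H3K4me3 region the median was 0.030, with 14 promoters 2-fold lower and 52 higher. When every list was limited to peaks at 2-fold over IgG or more, 16 were 2-fold lower. The share over all peaks was not counted at these settings, so these counts describe bivalent promoters alone. An overlap of at least 1000 bp left 224 promoters, of which 20.1% (15.4 to 25.8) overlapped NUP210, against 13.5% (12.9 to 14.2) of the other H3K4me3 peaks. An overlap of 0.5 of the length of the H3K4me3 peak or more left 207, of which 14.5% overlapped NUP210, against 10.6% of the other peaks. Of KO bivalent promoters, 50.9% were then bivalent in sg-Ctrl. With an FDR of at most 0.01, 13.3% overlapped NUP210, against 8.47% of the other peaks. In alternatives chosen after seeing the data, promoters with a TSS inside both peaks had a median log2 H3K4me3 ratio of -0.015, and counting a KO H3K27me3 peak within 4000 bp left 62.7% still bivalent and 32.5% with H3K4me3 only. The smallest gap between listed H3K27me3 peaks is 4000 bp. Other causes of these differences were not tested.

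No paired analysis was possible because each condition has 1 library and the lists carry no replicate numbers. The lists contain peaks only, and reads at a promoter without a KO peak cannot be read from them. Weak H3K4me3 limits single promoters, as 287 of the 351 had at least 100 reads in sg-Ctrl.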

Other observations

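Over all chromosomes 3.19% of H3K4me3 peaks were bivalent promoters. Chromosome 2 had 43 of them among 902 H3K4me3 peaks (4.77%) and chromosome 7 had 7 among 809 (0.865%), and the highest shares among autosomes were on chromosomes 16 (5.57%) and 12 (5.07%). Neighbouring promoters can share an H3K27me3 peak, and no test was made of these numbers.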
